A study of Petromyzon marinus and Lampetra planeri with 28 samples.

Results

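The accessible regions of 2 lamprey species were compared as sets of peak positions on 1 genome. The sea lamprey (Petromyzon marinus) set held 236315 peaks and the brook lamprey (Lampetra planeri) set held 314377, and all 550692 peaks were used. Both sets came from ATAC-seq, in which the transposase Tn5 inserts sequencing adapters into chromatin that is not wrapped in nucleosomes, so that reads pile up over promoters, enhancers and other open DNA. Reads of both species had been aligned to the germline genome of the sea lamprey, and each set pooled the peaks called at 3 stages.

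The 9 sea lamprey libraries were 3 of dorsal neural tube (DNT) at Tahara stage T20, 3 of DNT at T21 and 3 of whole heads at T23, from 20, 20 and 6 embryos each. The 10 brook lamprey libraries were 3 of T20 DNT from 16, 16 and 20 embryos, 4 of T21 DNT from 11, 11, 20 and 19 embryos, and 3 of T23 heads from 6 embryos each. Sea lamprey embryos came from fertilisation in the laboratory and brook lamprey embryos were taken from a river, no agent or mutation was applied to either, and every library was a pool of embryos. The DNT carries premigratory and delaminating neural crest cells among neural cells, and the T23 head holds many other tissues, so each set mixes cell types. The sea lamprey genome was the reference for both species and the origin of the embryos differed with the species, so a difference between species cannot be told apart from a difference in how well reads aligned or in how embryos were obtained.

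The neural crest forms at the border of the neural plate, leaves the dorsal neural tube and gives rise to much of the craniofacial skeleton and the peripheral nervous system of vertebrates. Its genes are switched on by transcription factors that bind promoters, next to the start of a transcript, and enhancers, which can lie in introns or far from the gene. Lampreys are jawless vertebrates that have a neural crest, and the sea and brook lampreys belong to different genera.

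The files held a start and an end for each peak and no height, so the depth behind a peak is unknown. There was 1 set per species with stages and libraries merged, which left no replicate, and no difference was tested. Intervals are 95% intervals. Those of shares cover counting error only, and those of medians the spread over peaks, gaps or scaffolds, taken as independent draws. None covers variation between animals or libraries. The labelled tissues could not be checked against marker genes in the peak sets, because a position carries no level.

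Brook lamprey peaks were more numerous and narrower. There were 1.33 brook lamprey peaks for each sea lamprey peak. The median width was 342 bases in the sea lamprey (interval 341 to 343) and 320 bases in the brook lamprey (319 to 321). The central 50% of widths ran from 244 to 526 bases in the sea lamprey and from 236 to 447 bases in the brook lamprey, so the distributions overlapped over most of their range. Both sets had a floor at 200 bases, with 6.75% of sea and 8.84% of brook lamprey peaks exactly at it. The peaks covered 109.1 Mb in the sea lamprey and 120.9 Mb in the brook lamprey, a ratio of 1.11.

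The species differed most in the wide tail. Peaks wider than 500 bases made up 27.2% of the sea and 19.3% of the brook lamprey set. Above 1000 bases there were 16009 sea lamprey peaks (6.77%) and 7429 brook lamprey peaks (2.36%), and above 2000 bases 2398 and 387. The smaller set thus held 2.15 times as many peaks over 1000 bases and 6.20 times as many over 2000 bases. The order of the medians turned when only the 236315 widest brook lamprey peaks were kept, which removes the narrow peaks of that set: the brook lamprey median was then 25 bases above that of the sea lamprey.

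**Figure D1:**
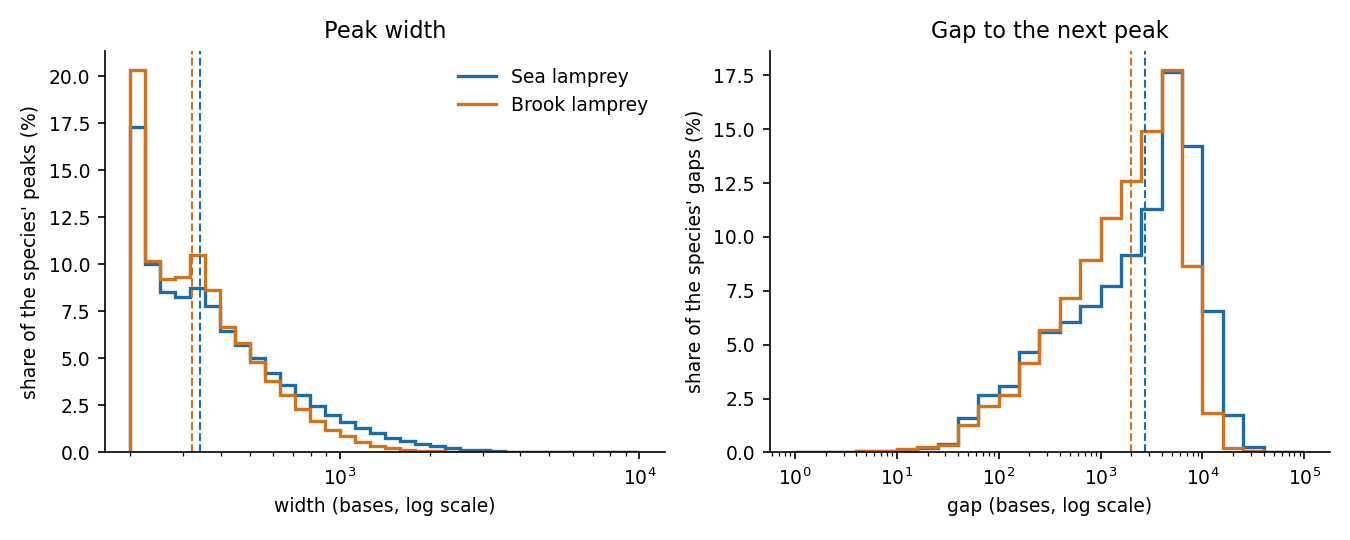
Histograms of peak width (left) and of the gap between neighbouring peaks on a scaffold (right), both in bases on a log scale, as a share of each species' peaks or gaps, with dashed lines at the medians. Widths share a floor at 200 bases and the sea lamprey has the heavier tail, while gaps pile up between 3981 and 6310 bases in both species and the brook lamprey has fewer long ones.

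The widest peaks of both species lay on short scaffolds. The widest sea lamprey peak spanned 7680 bases (scaf_01848:176-7855, 33.5% of the extent of that scaffold), and a brook lamprey peak of 7697 bases covered nearly the same stretch (scaf_01848:138-7834). The widest brook lamprey peak spanned 8437 bases (scaf_02378:126-8562) and also overlapped a sea lamprey peak. On scaf_08051 a single peak filled 98.1% of the extent in the sea lamprey and 98.2% in the brook lamprey. Extent runs to the last peak or exon of a scaffold, so here the sea lamprey peak itself set it. Full scaffold lengths were not known. The extents of these scaffolds were 22941, 19687 and 7053 bases. A single peak filled at least 50% of this extent on 954 scaffolds in the sea lamprey and on 165 in the brook lamprey. Of the peaks wider than 1000 bases, 50.2% of the sea and 38.6% of the brook lamprey ones lay on scaffolds under 1 Mb. Over peaks of all widths these shares were 28.0% and 19.9%.

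Peaks sat closer together in the brook lamprey. The median gap from the end of a peak to the start of the next was 2731 bases in the sea lamprey (2704 to 2758) and 2001 bases in the brook lamprey (1988 to 2014). Short gaps were about equally common, with 21.4% of sea and 20.2% of brook lamprey gaps under 500 bases. The difference lay in the long gaps: 8.66% of sea lamprey gaps exceeded 10000 bases, against 2.19% in the brook lamprey. In both species the fullest of the bins of equal width on the log scale ran from 3981 to 6310 bases, with 17.6% and 17.8% of the gaps. Runs of at least 5 peaks with gaps under 500 bases were more frequent in the smaller set, 506 in the sea lamprey with up to 12 peaks each and 319 in the brook lamprey with up to 8. With the 236315 widest brook lamprey peaks alone the order of the medians turned, and the brook lamprey gap was 253 bases longer.

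The balance between the species depended on the scaffold. On the 105 scaffolds whose last peak or exon lay at 1 Mb or beyond there were 170077 sea and 251690 brook lamprey peaks. On the 11593 shorter scaffolds there were 66238 and 62687, so the sea lamprey set was there the larger one. Density fell with scaffold extent in the sea lamprey and, above 10 kb, was nearly level in the brook lamprey. Extent ended at the last peak or exon and scaffolds with neither were absent, which by construction raises density on the shortest scaffolds. How much of the fall came from this was not tested. Sea lamprey peaks numbered 540 per Mb on scaffolds under 10 kb, 295 from 10 to 100 kb, 250.1 from 100 kb to 1 Mb, 213 from 1 to 10 Mb and 191 above 10 Mb. Brook lamprey peaks numbered 344, 294, 301, 285 and 293 per Mb in the same classes. The ratio of brook to sea lamprey peaks therefore rose from 0.637 on the shortest scaffolds to 1.53 on the longest. The peaks of the shortest scaffolds were also the widest, with a median of 452 bases in the sea and 362 in the brook lamprey, against 323 and 311 on scaffolds above 10 Mb.

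Among the 105 large scaffolds, 104 held more brook than sea lamprey peaks. The median log2 ratio of brook to sea lamprey peaks was 0.56 (0.51 to 0.59), a ratio of 1.47, and its SD over the scaffolds was 0.18. The exception was scaf_00104, with 318 sea and 287 brook lamprey peaks, and the highest ratio was 1.8 on scaf_00099, with 198 and 356. Density ranged from 139 to 303 peaks per Mb in the sea lamprey and from 181 to 335 in the brook lamprey. The coefficient of variation over scaffolds was 15.0% in the sea and 7.54% in the brook lamprey. Densities of the species were loosely related over these scaffolds (Pearson's r = 0.39, Spearman's rho = 0.31, n = 105), which share 1 reference and 1 set of libraries per species. The median log2 ratio was 0.38 over the 35 shortest of them and 0.64 over the 35 longest. Over all 9565 scaffolds with a peak of both species the median log2 ratio was 0.00.

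**Figure D2:**
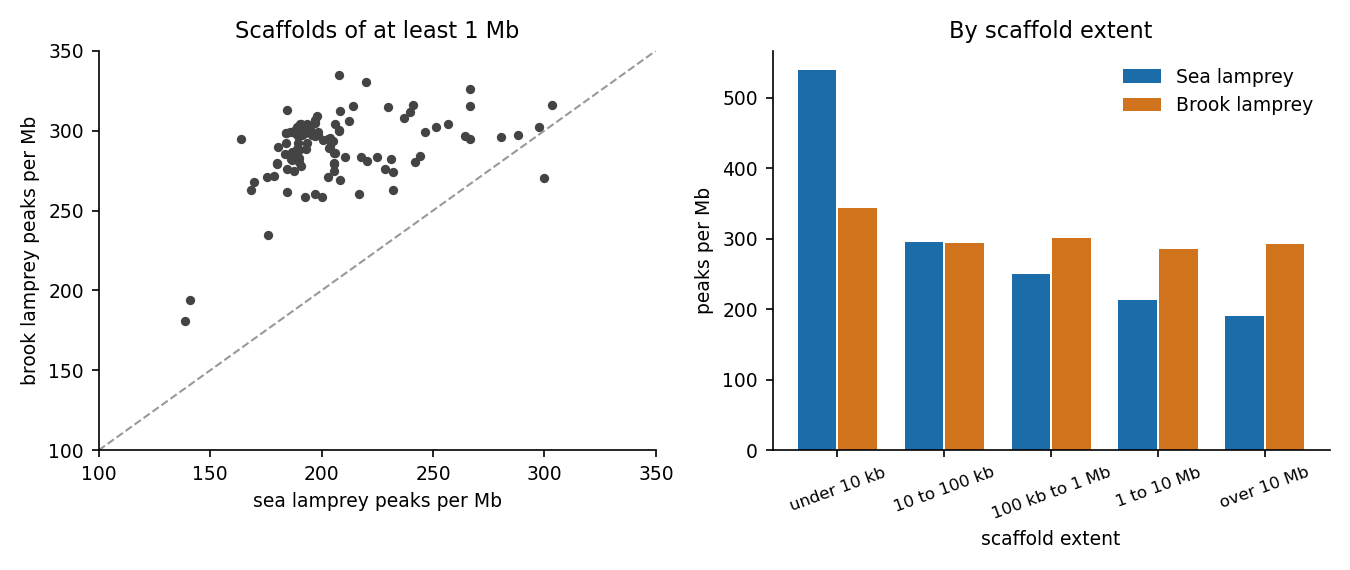
Peaks per Mb of the brook against the sea lamprey on the 105 scaffolds of at least 1 Mb, 1 point a scaffold with the dashed line at equality (left), and peaks per Mb of each species by scaffold extent (right). All points but 1 lie above the line, and sea lamprey density falls from 540 to 191 per Mb with rising extent while brook lamprey density stays between 285 and 344.

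Some scaffolds had peaks of 1 species only. There were 1856 scaffolds with sea lamprey peaks alone, holding 5831 of them, and 242 with brook lamprey peaks alone, holding 537. The scaffold scaf_00292, with an extent of 105398 bases, held 69 sea lamprey peaks and no brook lamprey peak. The most one-sided scaffold in the other direction, scaf_01994, held 11 brook lamprey peaks and no sea lamprey peak.

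On the large scaffolds the excess of brook lamprey peaks was spread along the sequence. Of 8550 windows of 100 kb with at least 1 peak, 92.2% held more brook than sea lamprey peaks and 6.06% held more sea than brook lamprey peaks. The median window held 20.0 sea lamprey peaks (16 to 23 in the central 50%) and 30.0 brook lamprey peaks (27 to 33). The window with the greatest excess of sea lamprey peaks (scaf_00045:1-100000) held 28 against 11. The window with the greatest excess of brook lamprey peaks (scaf_00005:8400001-8500000) held 15 sea and 47 brook lamprey peaks. A window on scaf_00037 from 2200001 to 2300000 held 12 and 39 peaks and includes Itgb4, an integrin subunit that anchors epithelial cells to the basement membrane.

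A minority of peaks in either species met a peak of the other. At least 1 base was shared by 39.1% of sea lamprey peaks (92508 of 236315, interval 38.9% to 39.3%) and by 29.9% of brook lamprey peaks (94115 of 314377, 29.8% to 30.1%). These peaks are called matched below. The shared bases came to 32.4 Mb, which is 29.7% of the sequence under sea lamprey peaks and 26.8% of that under brook lamprey peaks. Brook lamprey peaks covered 11.3% of the extent of the scaffolds, reduced by stretches of at least 400 kb with neither peak nor exon. Sea lamprey peak sequence was thus covered 2.63 times as densely as this reduced extent as a whole. Requiring the overlap to take 50% of both peaks left 22.2% of the sea and 16.7% of the brook lamprey peaks matched.

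Where exactly 1 peak met exactly 1 peak, the overlap itself keeps the centres close and favours the same annotation class. How far the values below go beyond that was not tested. There were 78371 such pairs, with medians of 378 bases in the sea and 398 in the brook lamprey, and the brook lamprey member was the wider in 53.5% of them. The centres lay a median of 84.0 bases apart, and 276 bases or less in 90% of the pairs. The overlap took at least 50% of both peaks in 62.4% of the pairs, and 95.6% of them fell in the same annotation class in both species. Unmatched sea lamprey peaks had a median distance of 1545 bases from their centre to the nearest brook lamprey centre on the scaffold, and 28.2% had one within 1000 bases. For unmatched brook lamprey peaks the median was 2060 bases, and 21.1% had a sea lamprey centre within 1000 bases.

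Matching rose with width in the brook lamprey, and up to 2000 bases in the sea lamprey. Of the peaks at the 200-base floor, 28.2% were matched in the sea lamprey and 15.0% in the brook lamprey. Above 300 and up to 400 bases the shares were 38.4% and 29.1%, and above 600 and up to 1000 bases 50.3% and 56.4%. Above 1000 and up to 2000 bases they were 54.7% and 77.0%. Above 2000 bases 48.7% of the sea lamprey peaks and 96.4% of the brook lamprey peaks were matched. A wider peak meets another peak more easily at any density, and that part was not separated. In the brook lamprey the matched share also fell with scaffold length, from 62.3% under 10 kb to 24.6% above 10 Mb. In the sea lamprey it was 37.1% and 37.3% in these classes and between 41.5% and 43.6% in the 3 classes between them. Cover by the other set changed as well. Sea lamprey peaks covered 37.2% of the reduced extent under 10 kb and 7.94% above 10 Mb, and brook lamprey peaks 16.6% and 10.8%. Denser cover by the other set raises matching by itself, and that part was not separated either.

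The position of the peaks was read against the transcript models that the authors assembled from sea lamprey RNA-seq of DNT, whole heads and whole embryos. The 29019 loci spanning at least 1500 bases were used, of 72171 in all. A promoter ran from 1000 bases before to 100 after a transcript start and a transcript end from 100 before to 1000 after the last base, and each peak was counted once by its centre, in the order promoter, transcript end, exon, first intron, later intron, intergenic. All models came from the sea lamprey, so starts used only in the brook lamprey were not represented.

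Promoters took a larger share of the sea lamprey set and exons a larger share of the brook lamprey set. Promoter peaks made up 6.33% of sea lamprey peaks (6.24% to 6.43%) and 4.86% of brook lamprey peaks (4.79% to 4.94%), although their numbers were nearly the same, 14968 and 15279. Exon peaks made up 6.85% and 10.9%, which is 16192 sea and 34175 brook lamprey peaks, a ratio of 2.11 against 1.33 over all peaks. First introns held 21.9% and 22.2%, later introns 15.0% and 16.9%, transcript ends 2.82% and 2.99%, and intergenic sequence 47.1% and 42.2%. Promoter sequence was covered by peaks to 15.4% in the sea lamprey and 12.9% in the brook lamprey, and exon sequence to 10.1% and 15.8%. On the large scaffolds alone the promoter share of the sea lamprey exceeded that of the brook lamprey by 2.12 percentage points, against 1.47 over all scaffolds.

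Both species had a maximum of peaks just after the start of loci. Over 25294 loci with a strand, sea lamprey peak centres rose from 20.2 per kb per 100 loci, the mean from 10 to 5 kb before the start, to 66.5 in the first 250 bases, which is 3.29 times as many. Brook lamprey peak centres rose from 28.7 to 52.7, or 1.8 times. Of the 80 bins of 250 bases from 10 kb before to 10 kb after the start, the sea lamprey had more peaks in 6, from -500 to 999, and the brook lamprey in the others. From 2 to 5 kb past the start the sea lamprey was back at 20.0 per kb per 100 loci, whereas the brook lamprey held 32.5, above its own upstream level.

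**Figure D3:**
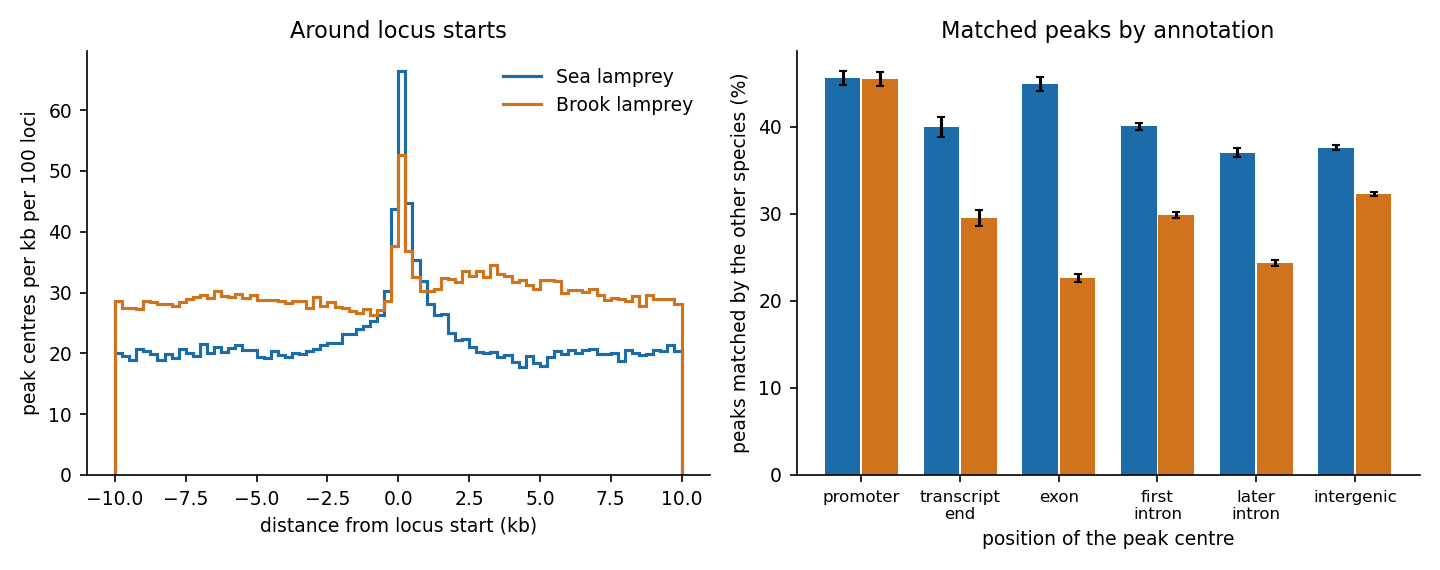
Peak centres per kb per 100 loci in bins of 250 bases by distance from the start of 25294 loci with a strand (left), and the share of peaks that overlap a peak of the other species by position of the centre, with 95% counting intervals (right); blue is the sea and orange the brook lamprey. The sea lamprey reaches 66.5 and the brook lamprey 52.7 in the first bin after the start, and promoter peaks are matched to about 45% in both species while exon peaks are matched to 44.9% in the sea and 22.6% in the brook lamprey.

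The exon peaks differed by the place of the exon in the transcript. First exons were overlapped by a sea lamprey peak in 45.8% of cases and by a brook lamprey peak in 34.6%. Internal exons showed the opposite order, 11.8% in the sea and 26.9% in the brook lamprey, a ratio of 2.28. Last exons were overlapped in 30.2% and 46.2%. The orders were the same among exons of like length. For exons of 100 to 150 bases the shares in the sea and the brook lamprey were 38.4% and 28.4% for first, 8.93% and 23.6% for internal, and 17.1% and 23.7% for last exons.

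Over all widths matched peaks were most frequent at promoters, though in the sea lamprey the interval of exon peaks (44.2% to 45.7%) overlapped that of promoter peaks (44.8% to 46.4%). Promoter peaks were matched in 45.6% of sea and 45.5% of brook lamprey cases, against 39.1% and 29.9% over all peaks. Exon peaks were matched in 44.9% of sea but 22.6% of brook lamprey cases, the lowest share of any class in the brook lamprey. Intergenic peaks were matched in 37.6% and 32.3%, first intron peaks in 40.1% and 29.9%, and later intron peaks in 37.1% and 24.4%. The order in the brook lamprey was the same for peaks above 300 and up to 400 bases, with 44.3% at promoters, 31% in intergenic sequence and 21.8% in exons. In the sea lamprey it turned at this width, with 43.9% of exon and 41.0% of promoter peaks matched. Each class was also read against the share of its sequence that the other species covered. Exon peak sequence was shared 2.08 times as often as exon sequence was covered in the sea lamprey and 1.8 times in the brook lamprey. In the other 5 classes these values ran from 2.58 to 2.93 and from 2.58 to 2.76. Peaks were placed by their centre, so exon peaks can reach into introns, and the sequences of the classes overlap. The peak sequence and the class sequence thus differ, and the lower exon values were not separated from this.

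Distance from a start moved with matching chiefly in the brook lamprey. Within 500 bases of a start 48.7% of brook lamprey peaks were matched, between 1000 and 2000 bases 29.8%, and beyond 50000 bases 24.7%. In the sea lamprey the shares were 46.9%, 40.3% and 36.3%. Peaks were also denser near starts. In the first 250 bases of loci with a strand, sea lamprey peaks were 3.29 times and brook lamprey peaks 1.8 times as dense as upstream. A denser other set raises matching by itself, and that part was not separated. The median distance from a peak to the nearest start was 9562 bases in the sea and 10143 bases in the brook lamprey. No start of a used locus lay on the scaffold of 14.8% of sea and 9.23% of brook lamprey peaks.

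Most loci carried peaks of both species and more of the brook lamprey. A sea lamprey peak centre lay in the body of 79.0% of the 29019 loci and a brook lamprey centre in 85.2%, and 72.3% held both. Peaks of the sea lamprey alone were found in 1928 loci (6.64%), of the brook lamprey alone in 3749 (12.9%) and of neither in 2353 (8.11%). The mean was 5.12 sea and 7.52 brook lamprey peaks a locus. Brook lamprey peaks were the more numerous in 60.1% of loci and sea lamprey peaks in 17.6%. Per length of locus there were 2.10 sea and 3.09 brook lamprey peaks per 10 kb.

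Length of the locus moved with these numbers. Loci with peaks of both species had a median span of 13880 bases, those with the sea lamprey alone 2454, those with the brook lamprey alone 3414 and those with neither 2099. Among loci above 100 kb every one held peaks of both species, and 92.9% had more of the brook lamprey. Among loci of 1500 to 5000 bases 54.1% held a sea and 63.2% a brook lamprey peak. The difference between species in the share of loci with a peak was 6.28 percentage points in favour of the brook lamprey, and it turned to -0.10 when 10 kb were added on each side of the body and came to 0.00831 over all 72171 loci. Of the 20989 loci with peaks of both species, 78.9% held a matched sea lamprey peak, and in the others the peaks of the species did not touch.

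Of 54 loci in 7 groups of genes, 46 had more brook than sea lamprey peaks in the body, 3 had fewer and 5 had the same number, where 60.1% of all loci had more brook lamprey peaks. The 54 loci were long, with a median span of 22646 bases against 8165 for all loci. Among all loci of 20 to 100 kb, 84.4% had more brook lamprey peaks. The median log2 ratio with 1 added to each number was 0.58 for these loci and 0.42 for all loci. Promoter peaks of both species, which need not overlap, were found at 26 of the 54, 48.1%, against 25.0% of all loci. For this share loci of like span were not compared. A sea lamprey promoter peak was found at 42.5% of all loci and a brook lamprey one at 41.7%.

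Among 10 loci of neural crest specifiers, a group named for transcription factors that set up neural crest identity in jawed vertebrates, 8 had more brook lamprey peaks, Foxd3 had 15 in each and a locus listed as Sox9 on scaf_00003 had 3 sea and 2 brook lamprey peaks. Another locus listed as Sox9, on scaf_00011, held 1 sea and 6 brook lamprey peaks in 13331 bases, and both are of the SoxE family. TWIST1, a helix-loop-helix factor of migrating crest and mesenchyme in jawed vertebrates, held no sea and 3 brook lamprey peaks in its body. With 10 kb on each side TWIST1 held 6 sea and 8 brook lamprey peaks, 4 of each matched. The locus named TFAP2B on scaf_00002 held 21 and 25 in its body. With 10 kb on each side, 46 of 101 sea lamprey peaks of the group (45.5%) were matched, against 40.6% for all loci, and 44 of 129 brook lamprey peaks (34.1%), against 29.3%. Promoter peaks of both species were present at 6 of the 10 loci.

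The 9 loci of the neural plate border and dorsal neural tube held 74 sea and 112 brook lamprey peaks in their bodies. The dorsal midline signal WNT1 held 7 and 12, wnt10a held 6 and 15, and Gdf7, a roof plate signal of the TGF-beta family, held 6 in each. MSX2, a homeobox factor of the border, held no sea and 3 brook lamprey peaks in its 4711 bases. It had a promoter peak in both species, but these did not overlap. With 10 kb on each side none of its 2 sea and 12 brook lamprey peaks was matched. BMP4, which patterns dorsal tissue, held 3 and 6, and all 3 sea lamprey peaks were matched. In this group 61 of 110 sea lamprey peaks (55.5%) and 60 of 165 brook lamprey peaks (36.4%) with 10 kb on each side were matched.

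All 6 neural tube loci had more brook lamprey peaks. Their median span was 64107 bases, and 84.4% of all loci of 20 to 100 kb had more brook lamprey peaks. SOX1, a factor of neural progenitors whose locus also carries Dis3, held 37 sea and 56 brook lamprey peaks in 157421 bases, and 24 of the 37 were matched. The midbrain and hindbrain factor pax2a held 25 and 47, otx2 of the forebrain and midbrain held 10 and 20, and PAX5 held 21 and 25. Neurog2, a proneural factor with a short locus of 5612 bases, held 1 and 2.

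The 5 loci listed for the hox-alpha cluster, which patterns the body axis, held 8 sea and 19 brook lamprey peaks. The hox-alpha3 gene was not among them. A brook lamprey promoter peak was found at all 5 and a sea lamprey one at hox-alpha2 alone, against 41.7% and 42.5% of all loci. The loci hox-alpha4 and hox-alpha9 held no sea lamprey peak in the body, and 4 and 3 brook lamprey peaks. With 10 kb on each side 11 of 21 sea lamprey peaks were matched (52.4%), against 40.6% for all loci. For brook lamprey peaks it was 11 of 54 (20.4%), against 29.3%. The windows of neighbouring loci overlap, so a peak can be counted more than once. Over the whole stretch with the same margins, each peak counted once, 16 of 30 sea (53.3%) and 15 of 60 brook lamprey peaks (25.0%) were matched.

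The remaining groups also held more brook lamprey peaks in sum. All 6 adhesion and matrix loci had more brook lamprey peaks, among them CadN, a classical cadherin, with 4 and 8, and Col6a1, a collagen VI chain, with 2 and 7. The median span of the 6 was 24631 bases, and 84.4% of all loci of 20 to 100 kb had more brook lamprey peaks. The mesoderm and endoderm loci held 29 and 42 peaks. In this group GATA2, a blood and endothelial factor, had more sea than brook lamprey peaks, 11 against 10, and 21 against 14 with 10 kb on each side. The 12 loci of ribosomal proteins and other widely expressed genes held 154 and 225 peaks, of which 88 and 121 lay in the single locus of 360434 bases that carries actb, FBXL18 and SMIM11, and 66 and 104 in the other 11. A sea lamprey promoter peak was present at 10 of the 12 and a brook lamprey one at 6, which is 83.3% and 50.0% against 42.5% and 41.7% of all loci. The 12 loci had a median span of 19763 bases against 8165 for all loci. For these shares loci of like span or expression were not compared. The RPS15 locus, which also carries Vwa5a, was at 21 and 20 the 1 locus of the group with more sea lamprey peaks.

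Around the locus that the study's tables list as SOX10, taken here as SoxE1, a SoxE factor of the neural crest (scaf_00019:7295802-7308497, plus strand), 11 sea and 20 brook lamprey peaks lay within 30 kb of either end. Of these, 6 sea lamprey peaks (54.5%) and 5 brook lamprey peaks (25.0%) were matched, against 39.1% and 29.9% over all peaks. A sea lamprey peak of 550 bases at the start (7295740 to 7296289) overlapped a brook lamprey peak of 255 bases by 191 bases. Another matched pair lay in an exon at 8.32 kb from the start. Upstream, sea lamprey peaks of 200 and 240 bases at 10.2 and 9.69 kb both met 1 brook lamprey peak of 485 bases (7285601 to 7286085). Downstream of the locus a sea lamprey peak of 348 bases (7323259 to 7323606) lay wholly inside a brook lamprey peak of 558 bases.

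Around Tfap2b, the AP-2 factor on scaf_00017 (14878098 to 14918605, minus strand), there were 19 sea and 34 brook lamprey peaks, 10 of each matched. That is 52.6% and 29.4%, against 39.1% and 29.9% over all peaks. Of the peaks in the body, 5 of 8 sea and 5 of 14 brook lamprey peaks were matched, and 4 of these pairs lay in later introns. Among these 4, the pair with the sea lamprey peak at 14889210 to 14889440 shared only 9 bases. A sea lamprey peak of 332 bases (14884312 to 14884643) lay wholly inside a brook lamprey peak of 406 bases. At the start itself a brook lamprey peak (14918341 to 14918718) had no sea lamprey partner, while the nearest sea lamprey peak (14917838 to 14918131), in the first intron, had no brook lamprey partner.

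Around hox-alpha2 (scaf_00004:19719088-19734338, plus strand), 13 of 16 sea lamprey peaks (81.2%) and 12 of 24 brook lamprey peaks (50.0%) were matched. Over all peaks the shares were 39.1% and 29.9%. The widest pair lay in an exon near the start of the assembled locus, 1066 bases in the sea lamprey (19719277 to 19720342) and 1226 in the brook lamprey (19719045 to 19720270), with 994 bases shared. The paper describes a transcript that begins at an enhancer upstream of Hox-alpha2 and reads through the gene. The start of the assembled locus may therefore lie upstream of that of the annotated gene, which was not checked. All 4 sea lamprey peaks in the body were matched. Upstream, sea lamprey peaks of 518 and 228 bases lay inside 1 brook lamprey peak of 1008 bases (19704373 to 19705380), 14.2 kb from the start. The median width of these peaks was 494 bases in the sea and 384 bases in the brook lamprey, against 342 and 320 over all peaks.

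**Figure D4:**
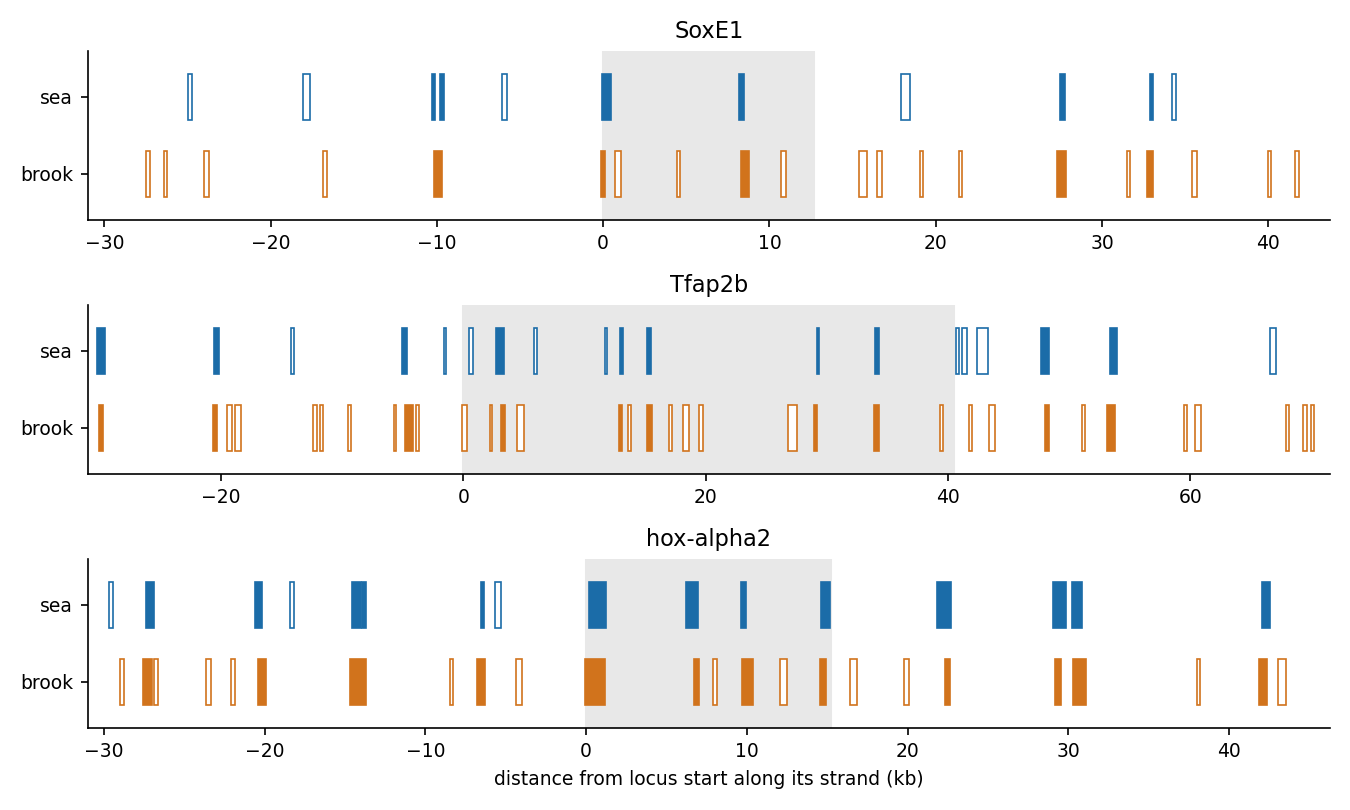
Peaks of the sea lamprey (upper row, blue) and brook lamprey (lower row, orange) within 30 kb of SoxE1, Tfap2b and hox-alpha2 by distance from the start of the locus along its strand in kb; filled boxes overlap a peak of the other species, open boxes do not, and the grey band is the locus. Filled boxes make up 6 of 11 sea lamprey peaks at SoxE1, 10 of 19 at Tfap2b and 13 of 16 at hox-alpha2. Over all sea lamprey peaks 39.1% were matched.

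Loci at the ends of the range were found by number of peaks. The most peaks in a named locus lay in one of 545735 bases on scaf_00005 that carries the names C12orf10, Myg1 and lrrc3b, with 108 sea and 178 brook lamprey peaks. DIAPH1, a formin that nucleates actin filaments, held 89 and 129, and the locus of MAN1A2 and Man1a1, mannosidases that trim N-glycans, held 79 and 134. The locus carrying beta-actin (actb) together with FBXL18 and SMIM11 held 88 and 121.

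Of 2609 named loci with at least 10 peaks of both species together, 184 (7.05%) had more sea than brook lamprey peaks, and the median log2 ratio was 0.58 (0.32 to 0.91 in the central 50%). The highest ratio was that of fam91a1, which takes part in vesicle tethering at the Golgi, with 1 sea and 13 brook lamprey peaks in 35811 bases. Rcc2, a regulator of chromosome condensation, Pigv, an enzyme of GPI anchor synthesis, and ELMSAN1 each held 1 and 10, and the translation initiation factor Eif4b held 2 and 14. The promoters of fam91a1 and Rcc2 had a peak in both species, though no peak in the body of either locus was matched. The lowest ratio was that of Trim14, a member of the TRIM family, with 13 sea and 5 brook lamprey peaks. IPO4, an importin, held 8 and 3, and DDX17, an RNA helicase, held 10 and 4. The locus of mul1a, a mitochondrial ubiquitin ligase, held 29 and 14, and hox-epsilon4 held 19 and 9. The 3 lowest lay on scaffolds under 1 Mb (scaf_00242, scaf_01181 and scaf_00311), and mul1a and hox-epsilon4 on large ones.

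Expression was set beside the promoter peaks as a measure that had no part in the peak calls. It was not independent of the promoter windows, because the transcript models were assembled from RNA-seq that included these libraries. The counts per locus were of sea lamprey DNT only, and 3 T21 libraries were used. For 27289 loci with a row in the expression table, the mean normalised count per kb of exon was taken as log2 with 1 added. Loci with a promoter peak in both species (7067) had a median of 6.08, those with a sea lamprey promoter peak alone (4882) 5.56, those with a brook lamprey one alone (4489) 4.00 and those with neither (10851) 3.57. The medians ranged over the 3 libraries from 6.07 to 6.10, from 5.53 to 5.57, from 3.93 to 4.04 and from 3.51 to 3.64. The ranges of the medians did not overlap, but each library measured the same loci, so they show repeatability only. Within each class the loci spread widely, from 3.98 to 7.63 in the central 50% for both and from 1.30 to 6.24 for neither.

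Length and number of transcripts moved with these classes. The median span was 17302 bases for both, 10716 for the sea lamprey alone, 8428 for the brook lamprey alone and 5661 for neither, and a locus with more transcripts has more promoter windows. Among loci with 1 transcript the medians were 3.52, 3.26, 2.64 and 2.79. The difference between both and neither was 2.51 over all loci and 0.73 among loci with 1 transcript, and the brook lamprey class no longer stood above that with neither.

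The loci were ordered by expression and cut into 10 classes of equal size. The share with a sea lamprey promoter peak rose from 25.1% in the lowest class to 59.6% in class 9 and was 55.7% in the highest. The share with a brook lamprey promoter peak rose from 31.1% to 51.3% in class 8 and was 45.8% in the highest. In the 5 lowest classes the brook lamprey share was above that of the sea lamprey, and in the 5 highest it was below. Among loci with 1 transcript the sea lamprey share went from 22.2% to 39.3%, whereas the brook lamprey share stayed between 27.8% and 32.4%.

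**Figure D5:**
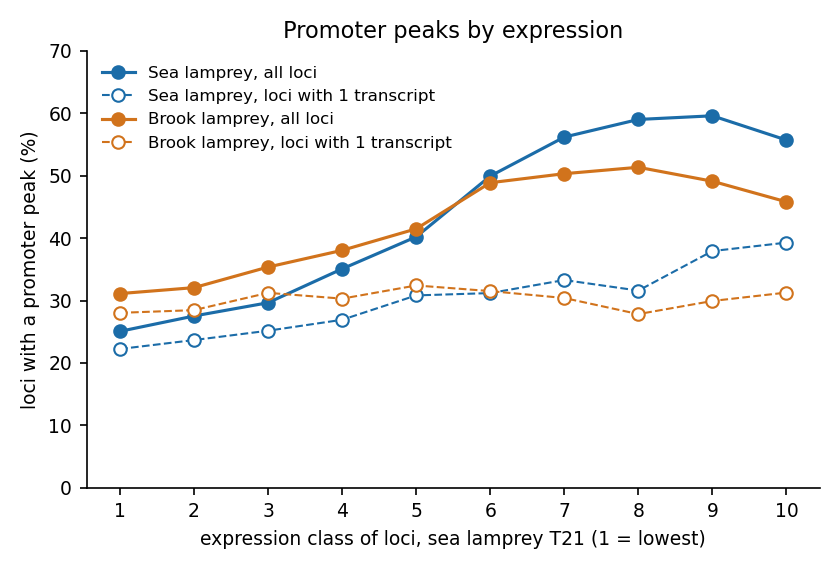
Share of loci with a promoter peak of each species by class of expression, 10 classes of loci of equal size ordered by sea lamprey expression at T21 (mean normalised count per kb of exon over 3 libraries); solid lines are all loci and dashed lines loci with 1 transcript. The solid sea lamprey line crosses the solid brook lamprey line between classes 5 and 6, and the dashed lines cross between classes 6 and 7.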

How the data were processed

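ATAC-seq was made by the authors from 9 sea lamprey and 10 brook lamprey libraries of 50000 cells. Reads were trimmed, aligned with Bowtie2 to the sea lamprey germline genome, freed of duplicates with Picard 1.83, merged by stage and reduced to the number of reads of the smallest file. Peaks were called with MACS2 per stage and merged with bedtools 2.15.0 into 1 set per species. The deposited peak files hold positions only, and their starts were read as 1-based because the smallest width is then 200. Depth per library is not given in the peak files. The deposited transcript models give exon positions. The deposited RNA-seq tables hold counts per locus (featureCounts 1.4.6-p4) and counts divided by DESeq2 1.8.2 size factors, a normalised signal, from reads aligned with STAR 2.4.2. The authors' counts were used only to select loci in an alternative.

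Here, overlap, spacing and annotation were computed with Python 3.11.15 (numpy 2.4.6, pandas 2.3.3, scipy 1.17.1) and the functions were tested on simulated intervals. Matching needed 1 shared base. Intervals are order-statistic intervals for medians and Wilson intervals for shares. Density per Mb used the extent of each scaffold to its last peak or exon, less 90 stretches of at least 400 kb with neither peak nor exon. Of these, 80 spanned 500 to 515 kb and none lay in a locus. They sum to 44.6 Mb of 1116 Mb, hold 90 of the gaps of each species and were not analysed here. Loci without strand were read as plus for promoters. The 1730 loci with no row in the expression table were left out of the expression classes. Gene names came from the study's tables (4926 of the 29019 loci). The loci named are those of 54 loci in 7 groups, the 3 with the most peaks in each species, and the 5 highest and 5 lowest ratios among named loci with at least 10 peaks, ties going to the longer locus. Single peaks were given within 30 kb of SoxE1, Tfap2b and hox-alpha2. Comparisons, members and lists were chosen with earlier results of these data known. Alternatives were other widths, overlaps, windows, loci and scaffolds, equal numbers of peaks, another pseudocount and the T20 libraries.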

Additional observations from a re-analysis of the deposited data

How the results depend on the processing

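Of 33 alternatives to 8 results, 29 kept the direction, 3 reversed it and 1 gave 0. Alternatives to the matched shares could not reverse, since a share is never negative. The 29 also include the difference in loci with a peak that fell from 6.28 to 0.00831 points. By size, 5 of the 33 stayed within the interval of the main value, which for expression was the SD over libraries. Another 25 moved outside it without reversing. 6 of the 33 were chosen after the data were examined. No paired analysis was possible because each species has 1 pooled peak set and no result comes from a test. For the same reason no replicate was left out.

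With equal numbers of peaks, the widest brook lamprey peaks being kept, the brook minus sea difference turned to 25 bases for the median width and to 253 bases for the median gap, and with 10 kb on each side of the body the difference in loci with a peak turned to -0.10 percentage points. The setting of equal numbers removes the narrow brook lamprey peaks by construction. It also gave matched shares of 34.5% in the sea and 34.3% in the brook lamprey, a log2 density ratio of 0.12 and a difference in loci with a peak of 2.09 points.

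The width difference was -22.0 bases and came to -14.0 on scaffolds of at least 1 Mb. The gap difference was -730.0 bases, -775 from centre to centre and -894 after joining peaks across gaps of 100 bases or less. The matched share of sea lamprey peaks was 22.2% with 50% of both peaks, 42.5% with centres within 500 bases, 36.1% among peaks wider than the median and 38.5% on scaffolds of at least 1 Mb. For brook lamprey peaks these were 16.7%, 32.5%, 27.7% and 26.3%. The promoter share difference of 1.47 points became 2.20 with all loci, 2.36 with any overlap and 2.12 on scaffolds of at least 1 Mb. The log2 density ratio of 0.56 became 0.00 over all scaffolds with a peak of both species and 0.38 for covered bases. The difference in loci with a peak of 6.28 points became 0.00831 with all loci and 8.37 on scaffolds of at least 1 Mb. The expression difference of 2.51 became 2.60 with a pseudocount of 0.1, 1.93 among loci with at least 10 counts and 0.73 among loci with 1 transcript. The cause of these shifts was not tested.

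The limits are the same throughout. Peak height and depth are unknown, stages are pooled, and 1 set per species gives no measure of variation between animals or libraries.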

Other observations

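The hox clusters other than hox-alpha were looked at after the values of hox-alpha had been seen, over the named loci of each cluster on 1 scaffold with 10 kb on each side. The epsilon cluster (4 loci, 418.6 kb on scaf_00005) held 105 peaks of each species, 41 of each matched. The other clusters held more brook lamprey peaks, with 30 sea and 60 brook lamprey peaks at alpha (5 loci), 30 and 52 at beta (4 loci), 20 and 28 at gamma (2 loci), 69 and 120 at delta (3 loci) and 5 and 9 at zeta (1 locus). The matched share of sea lamprey peaks was 53.3% at alpha, 33.3% at beta, 30.0% at gamma, 50.7% at delta, 39.0% at epsilon and 80.0% at zeta, against 39.1% over all sea lamprey peaks. No test was made, since each cluster is a single region.

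Loci without a strand, with a median span of 2085 bases, held a sea lamprey peak in 44.5% and a brook lamprey peak in 54.6% of 3725 cases. Of those with peaks of both species, 68.6% held a matched sea lamprey peak, against 79.4% of loci with a strand, whose median span was 10517 bases.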
